A study of Mus musculus with 6 samples.

Results

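Cell junction genes were examined in mouse primary hepatocytes given LRG1 protein or phosphate-buffered saline (PBS). The genes were taken by name: claudins, connexins, cadherins, desmosomal cadherins, and a fixed set of junction membrane and plaque proteins. This choice was made with earlier results of these data known. The names matched 94 of the 22609 gene rows, and 44 of these had 10 or more counts in at least 3 libraries. The 3 LRG1 libraries came from hepatocytes given 20 µg/mL LRG1 for 16 h, and the 3 PBS libraries from hepatocytes given PBS for the same time. All hepatocytes came from wild-type C57BL/6 males aged 4 months. LRG1 is a secreted leucine-rich glycoprotein, and the series was designed to measure its effect on hepatocyte gene expression. The labels do not say if replicates are different mice or cultures, so the p-values cover only the variation among these samples, part or all of which could be technical.

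Hepatocytes are polarised epithelial cells. Tight junctions seal the bile canaliculus from the blood side, and claudins and occludin form their strands. Gap junctions, built from connexins, let ions and small signals pass between neighbouring cells. Adherens junctions join cells through cadherins and nectins, which are tied to actin by catenins, and desmosomes join them through desmosomal cadherins, which are tied to keratin by plakoglobin, plakophilins and desmoplakin.

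Gene counts summed to between 19670496 and 23036332 in the LRG1 libraries and between 18625748 and 19774537 in the PBS libraries. Levels are given as CPM, read counts scaled to a common library total. Replicates of a treatment correlated across tested genes at a Pearson r of 0.995 to 0.996 on the log2 CPM scale, and no library stood apart. The summed level of the 7 hepatocyte markers was 20350 to 21170 CPM in LRG1 libraries and 21310 to 22640 CPM in PBS libraries, most of it albumin. Without albumin the other 6 summed to 2155 to 2304 CPM with LRG1 and 2839 to 2995 CPM with PBS. Of the 7, none was higher, 5 were lower and 2 did not pass, albumin and Ttr, with a median log2 fold change of -0.54. The largest falls were those of Tat, at 1.19 CPM with LRG1 and 9.20 CPM with PBS, and Cps1, at 8.44 CPM with LRG1 and 36.3 CPM with PBS. The hepatocyte markers thus moved in the same direction as the junction genes that fell, and their part in those falls was not tested. RNA was measured from all cells together, so fewer cells of a type and less RNA per cell cannot be told apart.

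The junction genes did not move as a block, and most families held genes that rose beside genes that fell. With LRG1 the connexins Gjb1 and Gjb2, the claudin Cldn1, the cadherin Cdh1 and the plaque gene Tjp3 fell, while the claudin Cldn4, the plaque gene Jup and the nectin Pvrl1 rose. Of the 44 genes, 36 passed an adjusted p of 0.05, against 51.4% of the 12301 genes tested. Throughout, an adjusted p comes from edgeR's quasi-likelihood test, corrected by the Benjamini-Hochberg method across these 12301 genes, unless another test is named. The 16 that rose made up 36.4% of the 44, against 25.5% of all tested genes, and the 20 that fell made up 45.5%, against 25.8%. Rises of at least 2-fold were found for 5 junction genes (11.4%, against 4.07% of all tested genes). Falls of at least 2-fold were found for 9 (20.5%, against 5.43%). The median log2 fold change was -0.05, against 0.01 for all tested genes, and the median size regardless of sign was 0.59, against 0.20. The junction genes were chosen with earlier results known, so these comparisons are descriptive. Call rates depend on level: of all tested genes averaging 10 CPM or more, 55.3% passed, and of the 32 junction genes at that level 25 did. Below 10 CPM, 41.0% of tested genes and 11 of 12 junction genes passed, but a low gene could enter through its higher group alone. Calls of at least 2-fold also depended on level, at 5.49% of tested genes from 10 CPM and 20.0% below it. Among junction genes they were 8 of 32 and 6 of 12. Gjb5 and Cdh10 met the count limit in LRG1 libraries alone, and Dsg1c in PBS libraries alone. All of these are among the 2-fold calls.

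**Figure D1:**
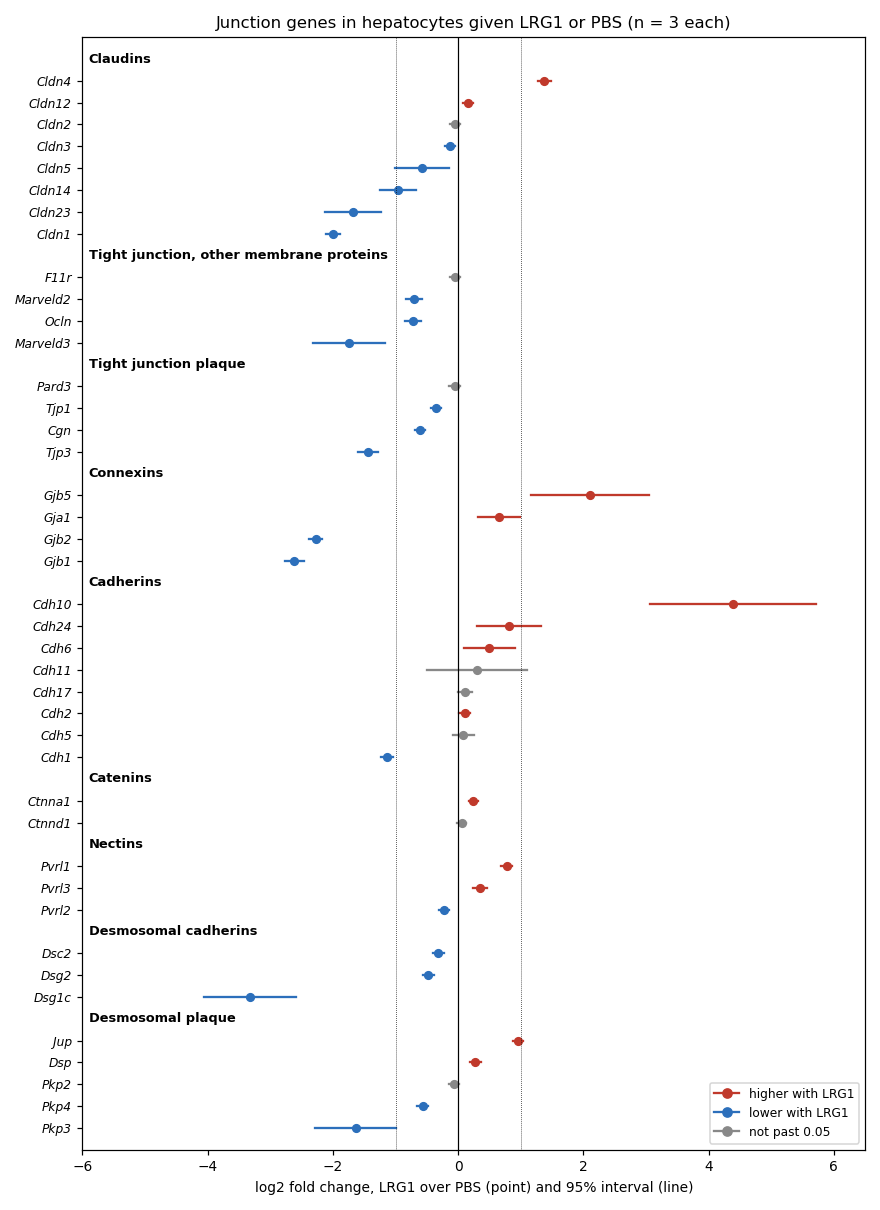
Log2 fold change (LRG1 over PBS, x axis) of 41 junction genes, grouped by role, with 95% intervals from edgeR's quasi-likelihood fit (n = 3 per group). Red genes were higher with LRG1 and blue genes lower at an adjusted p of 0.05, grey genes did not pass, and dotted lines mark 2-fold. The values lie between -3.32 for Dsg1c and 4.38 for Cdh10.

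**Figure D2:**
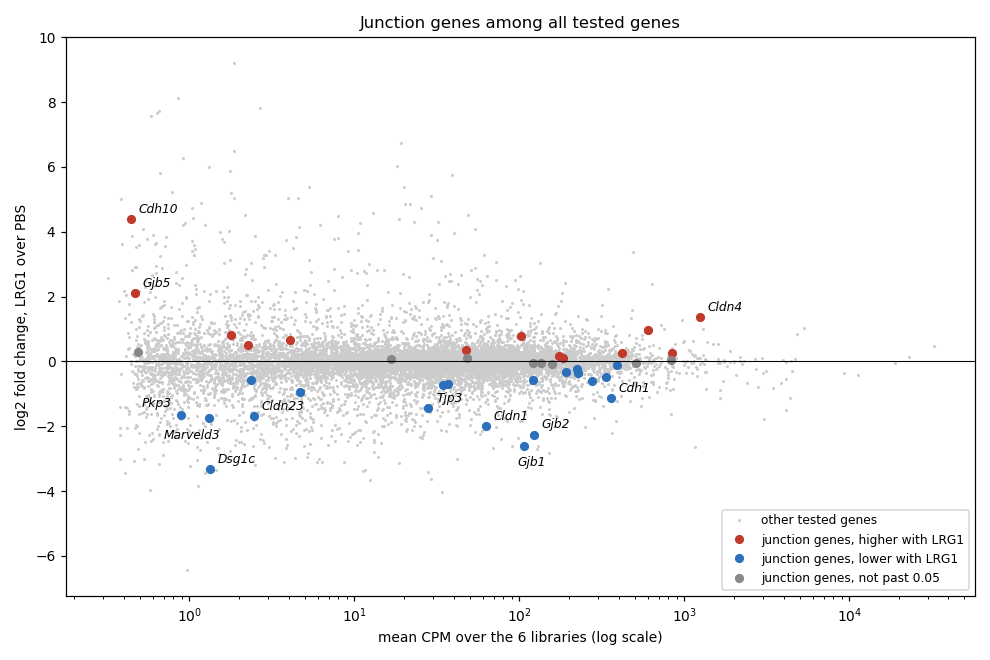
Log2 fold change (y axis) against mean CPM over the 6 libraries (x axis, log scale) for all 12301 tested genes in light grey and 41 junction genes in colour. Coloured genes past the threshold that differed at least 2-fold are named, with Cldn4 the most abundant of them.

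Gjb1 and Gjb2 encode the connexins by which hepatocytes of the mouse liver are mainly coupled. Gjb1 had 35.5, 25.8 and 28.3 CPM in the LRG1 libraries, against 173, 182 and 192 CPM in the PBS libraries. It was 6.13-fold lower after LRG1 (log2 fold change -2.62, SE 0.07, adjusted p = 6.45e-19). Every LRG1 library lay far below every PBS library. Gjb2 had 41.4, 44.3 and 39.7 CPM with LRG1, against 206, 194 and 210 CPM with PBS. It was 4.85-fold lower (log2 fold change -2.28, SE 0.05, adjusted p = 1e-20), and its groups did not overlap either.

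Gjb5, a connexin of squamous epithelia, had 11, 23 and 15 counts with LRG1, against 5, 3 and 2 counts with PBS. Its log2 fold change was 2.11 (SE 0.45, adjusted p = 0.000437), at levels below 1 CPM in every library. Gja4, a connexin of vessels, had too few counts to be included, with 12, 5 and 7 counts in LRG1 libraries and 1, 0 and 1 in PBS libraries. Gja4 was named with its values known and was not tested. The connexin Gjc1, also below the limit, had 11, 3 and 3 counts with LRG1 and 11, 5 and 2 counts with PBS. Gja1, the connexin of heart and of many other cell types, was scarce. It had 4.33, 4.88 and 5.64 CPM with LRG1, against 3.44, 2.69 and 3.29 CPM with PBS (log2 fold change 0.65, SE 0.16, adjusted p = 0.00147).

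Dividing each level by the gene's exon length allows genes to be compared with each other. The per-length ratio of Gjb1 to Gjb2 was 1.01 ± 0.194 with LRG1 and 1.27 ± 0.0710 with PBS (SD, n = 3 each), and these groups overlapped.

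Claudins set the tightness and ion selectivity of tight junctions. Cldn4, a sealing claudin of bile duct and other epithelia, rose most and Cldn1, a claudin needed for barrier sealing, fell most. Cldn4 had 1796, 1828 and 1758 CPM in the LRG1 libraries, against 617, 745 and 708 CPM in the PBS libraries. It was 2.60-fold higher after LRG1 (log2 fold change 1.38, SE 0.05, adjusted p = 1.24e-16), and no libraries of the groups overlapped. Cldn1 had 23.8, 26.8 and 24.5 CPM with LRG1, against 95.4, 104 and 101 CPM with PBS. It was 4.00-fold lower (log2 fold change -2.00, SE 0.06, adjusted p = 1.22e-18).

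Cldn3 is the neighbour of Cldn4 on chromosome 5 and moved little, in the other direction. It had 382, 377 and 367 CPM in LRG1 libraries, against 397, 410 and 421 CPM in PBS libraries (log2 fold change -0.13, SE 0.04, adjusted p = 0.00764). The per-length ratio of Cldn4 to Cldn3 was 3.26, 3.37 and 3.32 with LRG1, against 1.08, 1.26 and 1.17 with PBS. The neighbours therefore stood at similar levels in PBS cells, and Cldn4 exceeded Cldn3 several times over in LRG1 cells. Cldn4 made up 71.4 ± 0.239% of the per-length claudin sum with LRG1 and 45.9 ± 1.94% with PBS (SD, n = 3 each). Cldn1 made up 0.557 ± 0.0305% with LRG1 and 3.74 ± 0.0555% with PBS.

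**Figure D3:**
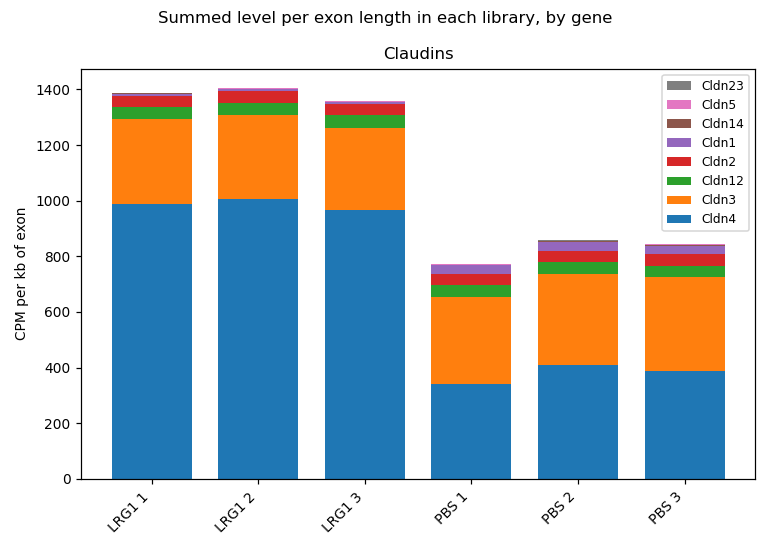
Summed level (CPM per kb of exon, y axis) of the 8 claudins in each of the 6 libraries, with 1 colour per gene. The sum averaged 1383 CPM per kb in LRG1 libraries and 826 CPM per kb in PBS libraries, with Cldn4 the largest part in every library.

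Because Cldn4 and Cldn3 are neighbours that responded unlike each other, and Cldn1 and Gjb2 fell steeply, the RefSeq promoter windows of these 4 genes are shown (GRCm38.p6, 250 bases before to 50 after the start, 5′ to 3′ on the strand of the gene). The windows are chr5:134946885-134947184 on the minus strand for Cldn4, chr5:134985964-134986263 on the plus strand for Cldn3, chr16:26371790-26372089 on the minus strand for Cldn1 and chr14:57104653-57104952 on the minus strand for Gjb2. Capitals mark the E-box CAGGTG, which Snail and ZEB repressors can bind, and the AP-1 motif TGANTCA, where N is any base. Both strands were searched, so CAGGTG also appears as CACCTG.
Cldn4: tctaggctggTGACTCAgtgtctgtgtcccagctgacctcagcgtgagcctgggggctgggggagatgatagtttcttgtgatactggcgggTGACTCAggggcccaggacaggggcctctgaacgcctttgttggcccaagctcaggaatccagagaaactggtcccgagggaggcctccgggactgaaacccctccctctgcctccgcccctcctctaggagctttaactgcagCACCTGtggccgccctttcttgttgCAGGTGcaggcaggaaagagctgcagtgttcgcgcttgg
Cldn3: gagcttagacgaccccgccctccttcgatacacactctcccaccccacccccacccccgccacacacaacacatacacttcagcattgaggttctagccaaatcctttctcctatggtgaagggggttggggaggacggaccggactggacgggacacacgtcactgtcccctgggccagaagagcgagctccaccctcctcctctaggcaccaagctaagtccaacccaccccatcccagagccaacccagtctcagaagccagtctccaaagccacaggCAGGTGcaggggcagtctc
Cldn1: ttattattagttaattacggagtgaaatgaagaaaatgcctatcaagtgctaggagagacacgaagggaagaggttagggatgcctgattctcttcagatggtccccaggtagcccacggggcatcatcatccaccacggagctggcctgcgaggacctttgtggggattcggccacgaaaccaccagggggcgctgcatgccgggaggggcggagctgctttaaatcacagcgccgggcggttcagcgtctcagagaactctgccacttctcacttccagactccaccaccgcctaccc
Gjb2: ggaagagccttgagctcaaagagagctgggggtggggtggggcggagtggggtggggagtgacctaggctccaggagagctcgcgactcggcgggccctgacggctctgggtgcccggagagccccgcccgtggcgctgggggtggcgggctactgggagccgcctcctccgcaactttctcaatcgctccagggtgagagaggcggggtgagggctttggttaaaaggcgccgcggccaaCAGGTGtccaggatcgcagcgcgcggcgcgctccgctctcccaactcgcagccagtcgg
The Cldn4 window held 2 E-boxes and 2 AP-1 motifs, the Cldn3 and Gjb2 windows 1 E-box each, and the Cldn1 window neither motif. Gjb1 fell more steeply than Cldn1 and Gjb2 but is not shown. Of its several windows, only chrX:101383482-101383781 held an E-box. RefSeq windows were found for 27 of the 44 junction genes, 40 windows in all, some of which overlap within a gene. An E-box was present in 16 of these 40 windows (40.0%), against 20.2% of 32851 windows of all genes. The windows of all genes were not matched to the 40 for base content or for expression. By gene, at least 1 window held an E-box for 9 of the 13 matched genes that fell, for 2 of the 10 that rose and for 2 of the 4 that did not pass. By window these were 12 of 22, 2 of 12 and 2 of 6. No share by gene was taken over all genes, and a gene with several windows could match more easily. The motifs were chosen with earlier results of these data known. An AP-1 motif was present in 3 of the 40 windows (7.5%), against 7.81% of all windows. These matches describe the letters only, and Cdh1 was not among the genes with a window.

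Of the other 6 claudins, 4 were lower, Cldn3 among them. Cldn23 had 1.39, 0.820 and 1.31 CPM with LRG1, against 3.24, 4.26 and 3.77 CPM with PBS, 3.22-fold lower with LRG1 (adjusted p = 5.38e-07). Cldn14, which excludes cations from the paracellular path, averaged 3.18 ± 0.257 CPM with LRG1 and 6.2 ± 0.287 CPM with PBS (log2 fold change -0.96, SE 0.14, adjusted p = 4.15e-06). Cldn12 was slightly higher, at 184 ± 5.42 CPM with LRG1 and 166 ± 0.539 CPM with PBS (log2 fold change 0.15, SE 0.04, adjusted p = 0.00211). Cldn2, a claudin that forms cation-permeable pores, did not pass. It had 119, 123 and 118 CPM with LRG1, against 125, 124 and 123 CPM with PBS, with a log2 fold change between -0.13 and 0.04 (95% interval).

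Cldn5, a claudin of endothelial cells, had 32, 47 and 41 counts in LRG1 libraries, against 46, 48 and 68 counts in PBS libraries (log2 fold change -0.58, SE 0.21, adjusted p = 0.0239). This call was lost without LRG1 replicate 1 (adjusted p = 0.0951), without PBS replicate 3 (adjusted p = 0.199) and by DESeq2 (adjusted p = 0.0892). The summed level of the 10 endothelial markers was 48.4 to 52.7 CPM with LRG1 and 55.0 to 59.5 CPM with PBS. Of the 9 tested, Stab2 and Lyve1 were lower and 7 did not pass. Of the 8 bile duct markers, 5 were tested: 2 were higher, Sox9 among them, Krt19 was lower, and Spp1 and Muc1 did not pass. Their summed level was 4363 to 4680 CPM with LRG1 and 4478 to 4663 CPM with PBS, nearly all of it Spp1 (the other 7 summed to 125 to 129 CPM with LRG1 and 101 to 107 CPM with PBS), while Krt7, Epcam and Cftr stayed below 1 CPM on average in each group. The 9 macrophage and leukocyte markers summed to 184 to 210 CPM with LRG1 and 220 to 267 CPM with PBS, with Cd3e at 0 in every library, and of the 7 tested only Cd68 passed, lower with LRG1. Cd68 made up most of that sum, and the other 8 summed to 9.59 to 14.4 CPM with LRG1 and 9.82 to 10.9 CPM with PBS, ranges that overlapped. The part of such cells in the values of Cldn4 and Cldn5 was not tested.

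**Figure D4:**
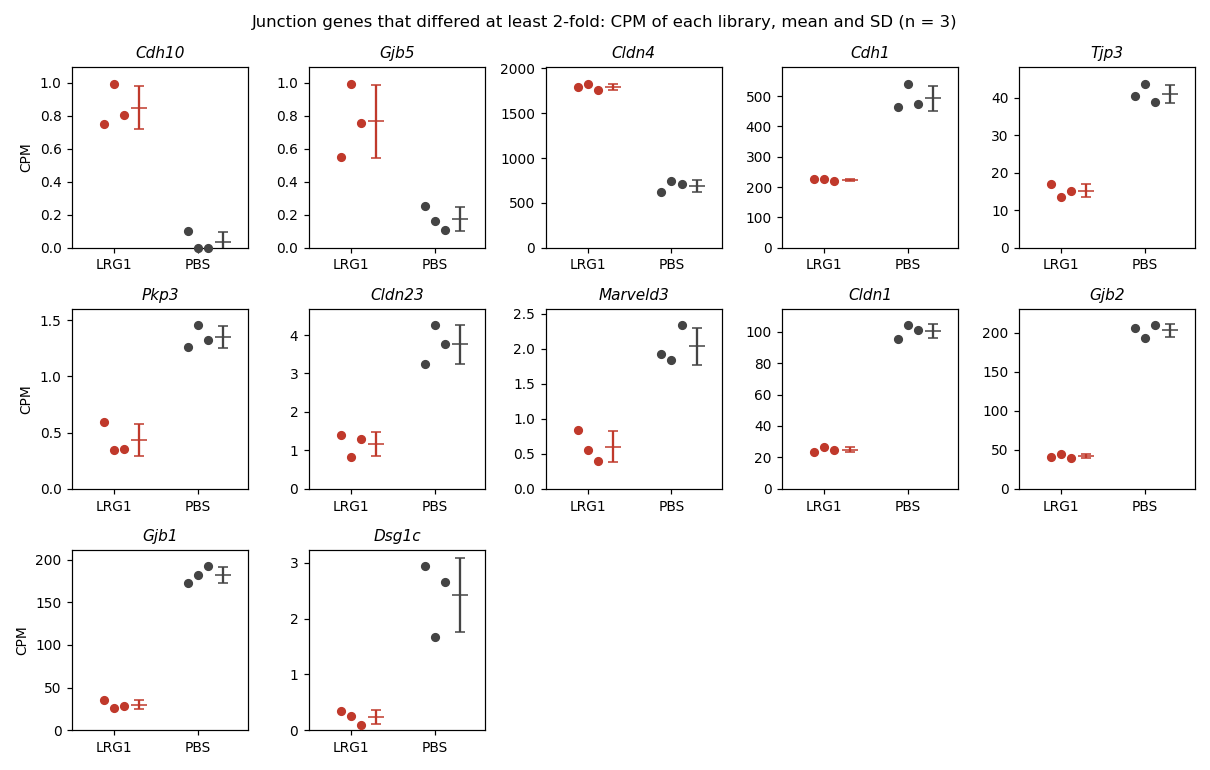
CPM (y axis, from 0, own scale per gene) of each library for 12 junction genes that differed at least 2-fold. Points are libraries, LRG1 in red and PBS in dark grey, and bars give the mean and SD (n = 3), cut at 0 for Cdh10. The groups did not overlap in any of the 12, which were drawn for their difference, so this adds nothing to the calls.

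The other membrane proteins of the tight junction fell, except F11r. Occludin (Ocln) and tricellulin (Marveld2), which belongs to contacts where 3 cells meet, are neighbours on chromosome 13 and fell by similar amounts. Ocln had 25.8, 25.5 and 27.1 CPM with LRG1, against 40.0, 44.1 and 45.2 CPM with PBS (log2 fold change -0.72, SE 0.06, adjusted p = 1.34e-09). Marveld2 had 26.7, 28.5 and 29.4 CPM with LRG1, against 45.2, 46.5 and 46.1 CPM with PBS (log2 fold change -0.70, SE 0.06, adjusted p = 5.51e-10). Marveld3, a relative of both, was scarce. It had 17, 13 and 8 counts with LRG1, against 38, 34 and 44 counts with PBS (log2 fold change -1.74, SE 0.28, adjusted p = 1.26e-05). F11r, the junctional adhesion molecule of epithelia, had 503, 490 and 507 CPM with LRG1, against 503, 532 and 520 CPM with PBS. It did not pass (adjusted p = 0.256), with a log2 fold change between -0.13 and 0.03 (95% interval).

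In the tight junction plaque, the zonula occludens genes Tjp3 and Tjp1 fell. These scaffolds tie claudins to actin. Tjp3 had 16.9, 13.6 and 15.1 CPM with LRG1, against 40.5, 43.7 and 38.8 CPM with PBS, 2.71-fold lower (log2 fold change -1.44, SE 0.08, adjusted p = 1.98e-13). Tjp1 had 206, 201 and 190 CPM with LRG1, against 265, 245 and 252 CPM with PBS (log2 fold change -0.35, SE 0.04, adjusted p = 1.67e-07). Neither overlapped between the groups.

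Cingulin (Cgn), which links the plaque to myosin, had 215, 221 and 223 CPM with LRG1, against 336, 341 and 327 CPM with PBS (log2 fold change -0.61, SE 0.04, adjusted p = 2.13e-12). Of its transcript 50-mers, 17.2% also occur in transcripts of other genes, so its counts are uncertain. Pard3, a polarity scaffold, did not pass, at 133, 136 and 127 CPM with LRG1, against 141, 132 and 139 CPM with PBS (95% interval -0.14 to 0.03 on the log2 scale).

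Among cadherins the largest change in a well expressed gene was in Cdh1. Cdh1 encodes E-cadherin, the main cadherin of epithelia. It had 225, 225 and 221 CPM in LRG1 libraries, against 465, 540 and 473 CPM in PBS libraries. It was 2.20-fold lower after LRG1 (log2 fold change -1.14, SE 0.05, adjusted p = 1.46e-15), with the LRG1 libraries tightly together. Cdh2, N-cadherin, which hepatocytes also carry, had 194, 188 and 190 CPM with LRG1, against 172, 174 and 186 CPM with PBS. It differed by only 0.10 on the log2 scale (SE 0.04, adjusted p = 0.0366). The call of Cdh2 was lost by DESeq2 (adjusted p = 0.0659), with a replicate block (adjusted p = 0.0666) and without any of 5 libraries, LRG1 replicates 1 to 3 and PBS replicates 1 and 2 (adjusted p = 0.0561 to 0.154). The per-length ratio of Cdh1 to Cdh2 was 1.30, 1.34 and 1.30 with LRG1, against 3.02, 3.48 and 2.84 with PBS. Cdh1 stayed above Cdh2 in every library.

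Cdh17, liver-intestine cadherin, did not pass, at 48.7, 52.5 and 48.3 CPM with LRG1 and 47.6, 46.1 and 44.8 CPM with PBS (adjusted p = 0.0952). Cdh5, the cadherin of endothelium, averaged 17.0 ± 1.22 CPM with LRG1 and 16.1 ± 0.447 CPM with PBS (adjusted p = 0.429). Cdh10, a cadherin known from the nervous system, had 15, 23 and 16 counts with LRG1, against 2, 0 and 0 counts with PBS. The ratio of the group sums was 24.5, with an exact 95% counting interval of 6.45 to 207 that covers counting error only. Without PBS replicate 1, which held both PBS counts, no count of Cdh10 remained in that group. Its fitted log2 fold change of 4.38 then became 7.11.

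The remaining cadherins were low. Cdh24 had 35, 62 and 47 counts with LRG1, against 34, 22 and 18 counts with PBS (log2 fold change 0.81, SE 0.25, adjusted p = 0.00783), and the call was lost without LRG1 replicate 2 (adjusted p = 0.0558) or PBS replicate 3 (adjusted p = 0.0556). Cdh6 had 59, 63 and 45 counts with LRG1, against 40, 37 and 30 counts with PBS (log2 fold change 0.50, SE 0.20, adjusted p = 0.0391). That call was lost by DESeq2 (adjusted p = 0.156) and without LRG1 replicates 1 or 2 or PBS replicates 2 or 3 (adjusted p = 0.0537 to 0.158). Cdh11, a cadherin of mesenchymal cells, did not pass, at 9, 12 and 13 counts with LRG1 and 11, 6 and 8 counts with PBS (adjusted p = 0.545). The summed level of the 11 stellate cell and fibroblast markers was 158 to 169 CPM with LRG1 and 59.9 to 68.3 CPM with PBS. The difference in that sum was almost all Col1a1, at 110.2 CPM with LRG1 and 11.2 CPM with PBS. Without Col1a1 the other 10 summed to 53.2 to 55.0 CPM with LRG1 and 49.3 to 54.6 CPM with PBS, ranges that overlapped. Of the 8 tested, Col1a1 and Acta2 were higher, Reln was lower and 5 did not pass, Des, Col1a2, Col3a1 and Dcn among them. The part of such cells in the cadherin values was not tested.

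The catenin genes Ctnna1, Ctnnb1 and Ctnnd1 did not fall with Cdh1, though other cytoplasmic adherens junction genes given below, such as Vcl and Lima1, did. Ctnna1, alpha-catenin, had 914, 934 and 905 CPM with LRG1, against 758, 798 and 769 CPM with PBS (log2 fold change 0.24, SE 0.04, adjusted p = 6.08e-06). Ctnnb1, beta-catenin, which was outside the chosen names, was also higher, at 1203 ± 4.07 CPM with LRG1 and 942 ± 24.0 CPM with PBS (log2 fold change 0.35, SE 0.04, adjusted p = 1.74e-08). Of its 50-mers, 12.3% also occur in another gene. Ctnnd1, the catenin that stabilises cadherins at the membrane, did not pass. It had 865, 855 and 827 CPM with LRG1, against 807, 818 and 827 CPM with PBS (95% interval -0.02 to 0.13 on the log2 scale). In GENCODE a second gene model shares 69.7% of its exon bases on the same strand, so its counts are uncertain.

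Nectins, immunoglobulin-like adhesion molecules listed here under their Pvrl symbols, went both ways. Pvrl1 had 133, 131 and 126 CPM with LRG1, against 73.6, 79.3 and 75.4 CPM with PBS (log2 fold change 0.77, SE 0.04, adjusted p = 5.20e-13). Pvrl3 had 53.1, 52.9 and 53.0 CPM with LRG1, against 43.0, 40.3 and 41.3 CPM with PBS (log2 fold change 0.35, SE 0.05, adjusted p = 5.79e-06). Both rose without overlap. Pvrl2 fell, with 207, 204 and 210 CPM with LRG1, against 244, 233 and 251 CPM with PBS (log2 fold change -0.23, SE 0.04, adjusted p = 3.86e-05).

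In desmosomes, the cadherins fell and plakoglobin rose. Dsg2, the widespread desmoglein, had 284, 280 and 276 CPM with LRG1, against 400, 370 and 397 CPM with PBS (log2 fold change -0.47, SE 0.04, adjusted p = 4.36e-10). Dsc2, the desmocollin of simple epithelia, had 169, 167 and 174 CPM with LRG1, against 220, 201 and 216 CPM with PBS (log2 fold change -0.32, SE 0.04, adjusted p = 6.86e-07). Neither overlapped between the groups. Dsg1c was scarce, with 7, 6 and 2 counts with LRG1, against 58, 31 and 50 counts with PBS (log2 fold change -3.32, SE 0.36, adjusted p = 3.23e-08). Of its 50-mers, 29.6% also occur in other genes, among them its paralogs Dsg1a and Dsg1b, so this value is uncertain.

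Jup encodes plakoglobin, which binds both desmosomal and classical cadherins. It had 822, 805 and 763 CPM in LRG1 libraries, against 413, 394 and 423 CPM in PBS libraries. It was 1.94-fold higher after LRG1 (log2 fold change 0.96, SE 0.04, adjusted p = 1.80e-15), with a wide gap between the groups. Desmoplakin (Dsp), which anchors keratin, had 454, 466 and 462 CPM with LRG1, against 411, 372 and 359 CPM with PBS (log2 fold change 0.27, SE 0.04, adjusted p = 1.22e-05). The per-length ratio of Jup to Dsp was 5.15 ± 0.238 with LRG1 and 3.22 ± 0.261 with PBS (SD, n = 3 each). Pkp2, a plakophilin of simple epithelia, had 152, 157 and 156 CPM with LRG1, against 158, 160 and 169 CPM with PBS and did not pass (95% interval -0.15 to 0.02 on the log2 scale).

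Pkp4, a plakophilin that also sits at adherens junctions, had 99.6, 97.9 and 93.3 CPM with LRG1, against 151, 138 and 142 CPM with PBS (log2 fold change -0.57, SE 0.04, adjusted p = 1.65e-10). Pkp3 had 12, 8 and 7 counts with LRG1, against 25, 27 and 25 counts with PBS, 3.12-fold lower (log2 fold change -1.64, SE 0.31, adjusted p = 0.000114). The desmosomal plaque thus held 2 genes that rose, 2 that fell and 1 that did not pass.

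Genes outside the chosen names but in the same structures were read against the same shares of all tested genes, 51.4% past the threshold, 25.5% higher and 25.8% lower. Of 21 polarity and scaffold genes, all tested, 6 were higher, 7 lower and 8 did not pass, with a median log2 fold change of -0.05. The 61.9% past the threshold stood above the 51.4% of all tested genes, on 21 genes. Call rates depend on level, and neither this list nor those below were matched for it, so these shares are descriptive. The scaffold genes Magi1 and Magi3 went in opposite directions. Magi1 averaged 165 ± 4.19 CPM with LRG1 and 88.7 ± 0.892 CPM with PBS (log2 fold change 0.89, adjusted p = 8.44e-15). Magi3 averaged 40.3 ± 0.932 CPM with LRG1 and 78.3 ± 3.25 CPM with PBS (log2 fold change -0.96, adjusted p = 1.48e-13). Crb3, the epithelial Crumbs protein that marks the apical membrane, was 2.38-fold lower with LRG1 (adjusted p = 4.45e-11), and the scaffold gene Lin7a was 7.25-fold lower (adjusted p = 1.19e-08), with means of 0.356 ± 0.143 CPM with LRG1 and 2.68 ± 0.325 CPM with PBS.

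Of 18 further tight junction genes, 15 were tested: 4 were higher, 6 lower and 5 did not pass, with a median log2 fold change of 0.07. That is 66.7% past the threshold, on 15 genes. Cxadr, an adhesion molecule that serves as receptor of coxsackieviruses and adenoviruses, averaged 174 ± 6.46 CPM with LRG1 and 405 ± 5.87 CPM with PBS, 2.33-fold lower (adjusted p = 1.20e-17). Ildr2, of the angulin family, was 3.21-fold lower (adjusted p = 6.03e-14), though some of its exon bases lie opposite another gene. Igsf5 was 1.24-fold lower (adjusted p = 4.58e-06), and Amotl2, an angiomotin, was higher, at 178 ± 2.19 CPM with LRG1 and 118 ± 4.07 CPM with PBS (adjusted p = 1.38e-11).

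Of 23 further adherens junction genes in the files, 16 were tested: 6 were higher, 7 lower and 3 did not pass, with a median of -0.06, which is 81.2% past the threshold. Lima1, an actin cross-linker, averaged 74.7 ± 2.43 CPM with LRG1 and 230 ± 9.77 CPM with PBS, 3.09-fold lower (adjusted p = 5.22e-19). Vinculin (Vcl), which links catenins to actin, was 1.44-fold lower (adjusted p = 7.51e-11), though 39.7% of the exon bases of Vcl lie opposite another gene. Alpha-actinin Actn1 was 1.45-fold higher (adjusted p = 2.89e-11), with 11.9% of its exon bases opposite other genes.

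Of 12 further desmosome and gap junction genes, 6 were tested, of which 4 were lower, none was higher and 2 did not pass. The 4 make up 66.7% of the 6, and the median log2 fold change over the 6 was -0.67. Periplakin (Ppl), a keratin linker, averaged 9.50 ± 0.663 CPM with LRG1 and 43.3 ± 0.149 CPM with PBS, 4.55-fold lower (adjusted p = 2.68e-17). Its relative envoplakin (Evpl) was 1.81-fold lower (adjusted p = 0.00583). Lmo7 was 1.93-fold lower (adjusted p = 3.76e-14) and Perp, a desmosomal membrane protein and p53 target in mouse cells, 1.40-fold lower (adjusted p = 1.28e-10).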

How the data were processed

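RNA-seq libraries of 6 hepatocyte samples (poly(A)-selecting, strand-marking kit, single reads of 50 nt, per the labels' protocols) were used, 3 per group by the sample titles. What the authors deposited are unnormalised read counts, 1 value per gene symbol. The submitters' processing notes name bcl2fastq, TopHat2, HTSeq and build mm9, and no version, annotation or strand setting was given in the sources used. The 5 HTSeq summary rows were left out: 8.96 to 10.3% of uniquely aligned reads fell in no gene and 0.258 to 0.280% were ambiguous, while alignments of reads with several placements, 58.2 to 59.3% of everything tallied, went uncounted, which lowers genes with close copies.

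Genes were kept by filterByExpr (minimum count 10), which left 12301 genes with all 44 junction genes. Tests were edgeR 4.0.16 (R 4.3.3) quasi-likelihood F tests with TMM scaling on treatment alone, at an adjusted p of 0.05. SE were derived from the F statistic. The fit was run on simulated counts with known changes in a small share of genes. Far more genes passed here, so that run does not measure the error rate in these data. Replicate pairs varied beyond sampling noise (chi-square per degree of freedom 2.84 to 4.02), so none was merged. Exon lengths, overlaps and shared 50-mers came from GENCODE M21 (GRCm38), gene order and promoters from RefSeq (GRCm38.p6), all matched by symbol; for 41 of the 44 genes at most 4.66% of 50-mers were shared and at most 5.2% of exon bases overlapped. Values per library were given for genes past the threshold with 2-fold differences, for junction genes known from hepatocytes and, beyond that rule, for most of the remaining junction genes, and other lists named genes with the 4 smallest p-values and Ctnnb1. Some genes are not reported here one by one, though they stay in the counts and sums. The genes, lists and motifs were chosen with earlier results of these data known. Alternatives used limma 3.58.1 (voom), DESeq2 1.42.0, other scalings and filters, a replicate block and left-out libraries.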

Additional observations from a re-analysis of the deposited data

How the results depend on the processing

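Across the 14 alternatives, between 5519 (DESeq2) and 6592 (no filter) genes passed, against 6317. Between 12 and 16 junction genes were higher, against 16, and 19 or 20 were lower, against 20. No junction gene changed direction, and 39 of the 44 kept their side of the threshold in every alternative that tested them. The other 5, Cdh2, Cdh6, Cdh24 and Cldn5 among them, lost their call in at least 1, and the cause was not tested. With a minimum of 1 CPM in 3 libraries Cdh10, Cdh11 and Gjb5 were not tested. With a replicate block 5890 genes passed, with 14 junction genes higher and 20 lower, and 2 calls were lost, that of Cdh2 (adjusted p = 0.0666) among them. Libraries of the same replicate number did not visibly deviate together (correlations of -0.123, -0.014 and -0.119 for numbers 1 to 3). With 3 libraries per group this cannot exclude a pairing, which the labels do not state. Genes with few counts, such as Cdh10, Gjb5, Dsg1c and Pkp3, have the widest intervals.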

Other observations

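Of the 94 named junction genes, 50 had too few counts to be described, and 23 of them had no count in any library, among them Cldn8, Cldn10, Cdh16 and Gjb6. At the edge of the count limit, Gjc1 just missed it with 11, 3 and 3 counts in LRG1 libraries and 11, 5 and 2 counts in PBS libraries, and Cdh11 just met it with 9, 12 and 13 counts with LRG1 and 11, 6 and 8 counts with PBS. Among the genes below the limit, Cldn6, a claudin of embryonic epithelia, had 0, 2 and 2 counts with LRG1, against 6, 7 and 6 counts with PBS. Cldn20 had 2, 5 and 3 counts with LRG1, against 0, 0 and 1 with PBS. Pkp1, the plakophilin of stratified epithelia, had 3, 5 and 4 counts with LRG1, against 1, 0 and 0 with PBS. These genes were picked after their values were seen, were not tested, and are at the limit of what this depth resolves.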
